A study of Mus musculus with 7 samples.

Results

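A group of 34 genes of glycolysis and of the cellular response to low oxygen was followed in regulatory T cells (Tregs) of mouse skin and of skin-draining lymph nodes (SDLN). The members were taken by symbol from a table of 24084 genes, and all 34 were found there. They cover glucose entry, each enzymatic step to lactate, the export of lactate, the pyruvate dehydrogenase kinases, and the factors and targets of the oxygen response. Tregs are CD4 T cells that carry the transcription factor Foxp3 and restrain immune responses. The study sequenced their mRNA to compare skin, taken in telogen, when hair follicles rest, with SDLN. All mice were 6 weeks old and of the Foxp3-DTR strain, described in the design as Foxp3-DTR/GFP, so both groups carried the same modified Foxp3 locus with its diphtheria toxin receptor and green fluorescent protein. The skin group had 4 libraries and the SDLN group 3. No sorting gate and no number of animals per library is stated in the labels, so p-values measure the spread between libraries, which may be partly technical.

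Glycolysis splits glucose into pyruvate in the cytosol, and lactate dehydrogenase turns pyruvate into lactate, which monocarboxylate transporters carry out of the cell. When oxygen is short, prolyl hydroxylases no longer mark HIF-1α for the VHL ubiquitin ligase. HIF-1α then pairs with ARNT and raises the transcription of glycolytic enzymes, glucose transporters and other targets through sites with the core letters ACGTG or GCGTG. In T cells, glycolysis also rises on activation, and Tregs are known to rely less on it than effector T cells. Stability of the HIF-1α protein, which sets its activity, is not measured by mRNA.

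The promoters of 5 members are printed to show how unevenly these core letters are spread over the gene of the oxygen-sensitive factor, 2 isozymes of the lactate step and a pair of the enzymes that rose in skin. Each runs 5′ to 3′ on the gene's own strand, from 250 bases before the start site to 50 after it, in RefSeq's GRCm38.p6 assembly, and the capitals mark ACGTG or GCGTG read on either strand (CACGT or CACGC where the match is on the other strand). They lie at chr12:73907617-73907916 on the plus strand for Hif1a, chr7:46845554-46845853 on the plus strand for Ldha (the first of its promoters in the table), chr6:142507908-142508207 on the minus strand for Ldhb, chr6:124814109-124814408 on the minus strand for Tpi1, and chr10:78009758-78010057 on the minus strand for Pfkl.
Hif1a: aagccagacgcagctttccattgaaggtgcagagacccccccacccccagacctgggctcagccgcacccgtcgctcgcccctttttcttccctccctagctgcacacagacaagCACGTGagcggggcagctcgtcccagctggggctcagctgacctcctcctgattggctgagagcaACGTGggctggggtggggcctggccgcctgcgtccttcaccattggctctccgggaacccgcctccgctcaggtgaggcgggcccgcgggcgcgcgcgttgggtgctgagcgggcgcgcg
Ldha: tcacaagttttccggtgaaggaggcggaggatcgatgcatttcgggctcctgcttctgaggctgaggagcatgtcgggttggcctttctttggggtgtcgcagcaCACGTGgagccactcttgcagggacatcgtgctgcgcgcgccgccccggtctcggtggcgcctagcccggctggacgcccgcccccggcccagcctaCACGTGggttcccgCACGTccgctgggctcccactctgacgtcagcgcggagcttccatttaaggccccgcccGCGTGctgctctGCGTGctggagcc
Ldhb: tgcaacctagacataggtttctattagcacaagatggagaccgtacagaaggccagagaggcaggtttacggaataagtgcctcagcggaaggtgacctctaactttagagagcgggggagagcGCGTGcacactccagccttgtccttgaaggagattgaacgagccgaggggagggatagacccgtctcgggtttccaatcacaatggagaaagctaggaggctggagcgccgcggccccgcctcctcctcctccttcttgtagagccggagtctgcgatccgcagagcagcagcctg
Tpi1: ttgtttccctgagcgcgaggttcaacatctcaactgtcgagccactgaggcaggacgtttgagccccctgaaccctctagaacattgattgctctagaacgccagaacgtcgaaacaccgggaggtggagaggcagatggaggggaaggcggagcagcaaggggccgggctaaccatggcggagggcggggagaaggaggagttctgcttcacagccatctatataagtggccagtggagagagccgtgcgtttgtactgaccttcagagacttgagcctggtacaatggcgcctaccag
Pfkl: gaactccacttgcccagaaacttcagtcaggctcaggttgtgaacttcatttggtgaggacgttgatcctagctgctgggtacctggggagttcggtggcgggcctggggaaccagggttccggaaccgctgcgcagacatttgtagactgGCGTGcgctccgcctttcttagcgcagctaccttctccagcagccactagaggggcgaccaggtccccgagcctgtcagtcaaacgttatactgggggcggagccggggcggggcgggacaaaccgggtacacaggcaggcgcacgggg
The Ldha promoter held 7 matches and that of Hif1a held 3. Pfkl and Ldhb had 1 match each, and Tpi1 had 0. The letters CACGTG, an E-box bound by other factors too, count as a match on both strands. A promoter was found for 31 of the 34 members, and 28 of those 31 (90.3%) held a match in at least 1 of their promoters, against 5891 of 8658 tested genes with a promoter (68.04%). Counted by single promoter and not by gene, 14380 of all 32851 promoters (43.8%) held a match. At least 2 matches in 1 promoter were found for 21 of the 31 members (67.7%) and for 3378 of the 8658 tested genes (39.0%). A match is a stretch of letters and not a measured binding site.

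The libraries held 11009609 to 13921238 gene counts in skin and 13123241 to 14785751 in SDLN. Genes with a count numbered 9690, 10002, 12639 and 11103 in skin 1 to 4. In SDLN 1 to 3 they numbered 13408, 13845 and 13497. The part of this difference in the results was not tested. On raw totals, 3 counts stood for 0.215 to 0.272 CPM (counts scaled to the size of the library) in skin. In SDLN they stood for 0.203 to 0.229 CPM. All other CPM are on TMM-scaled sizes. Across genes, the log2(CPM + 1) of 2 skin libraries correlated at 0.651 to 0.746 and that of 2 SDLN libraries at 0.970 to 0.988, while a skin and an SDLN library correlated at 0.653 to 0.746. Skin 1 carries a tissue tag that names the lymph node, while its title and source name skin. SDLN 3 had 3877 counts of the Y-linked gene Ddx3y, against at most 2 in every other library. For Xist, a transcript of female cells, it had 4 counts, against 4653 to 11758 in the others. SDLN 3 thus looked male and the other libraries, with all those of skin, female. The members Pgk1 and Pdk3 lie on chromosome X, and the part of sex in the results was not tested. The Treg identity was checked with a list of 8 T cell and Treg genes, which together had 7899 to 12539 CPM in skin and 8298 to 9979 CPM in SDLN. Within it, Foxp3 averaged 169 ± 65.2 CPM in skin (SD, n = 4) and 89.0 ± 17.7 CPM in SDLN (SD, n = 3), with an edgeR adjusted p of 0.242. Ctla4 (3820 ± 856 CPM in skin, 651 ± 132 CPM in SDLN) and Ikzf2 (2938 ± 745 CPM in skin, 1320 ± 134 CPM in SDLN) passed the test as higher. Il2ra (1367 ± 246 CPM in skin, 1663 ± 108 CPM in SDLN) and Cd3g (907 ± 293 CPM in skin, 1506 ± 442 CPM in SDLN) had lower means in skin. Neither passed the test, with edgeR adjusted p of 0.585 and 0.260. The T cell genes Cd3e (882 ± 350 CPM in skin, 1848 ± 308 CPM in SDLN), Cd3d (580 ± 187 CPM in skin, 1081 ± 325 CPM in SDLN) and Cd4 (466 ± 132 CPM in skin, 738 ± 78.0 CPM in SDLN) were below SDLN in every skin library without passing it, with edgeR adjusted p of 0.118, 0.179 and 0.246. A list of 14 macrophage and dendritic cell genes, of which 8 passed the filter on low counts and Cd207 was at 0 in every library, summed to 199, 238, 195 and 722 CPM in skin 1 to 4, against 17.2 to 25.8 CPM in SDLN. Skin 3 also held 1160 CPM of 9 keratinocyte genes and 2062 CPM of 7 fibroblast genes, against at most 20.7 and 9.30 CPM in the other skin libraries and at most 3.46 and 17.1 CPM in SDLN. Krt1 and Lor of the keratinocyte list were at 0 in all libraries. The part of these other cells in the results was not tested, and in sorted bulk samples fewer cells of a type and less RNA per cell cannot be told apart.

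In all, 6 members were higher in skin and 0 were lower. They were Tpi1, Aldoa, Pfkl, Pfkp and Pkm of the pathway itself and Hif1a of the oxygen response, with folds from 1.94 (Pkm) to 6.85 (Tpi1). Of the 34 members, 33 passed the filter on low counts, since Eno1 did not, and 6 of the 33 passed edgeR's quasi-likelihood test at a Benjamini-Hochberg adjusted p under 0.05 over all 11376 genes tested. That is 18.2% of the members tested, against 3.28% of all genes called higher. The members were chosen with earlier results of these data known, so this comparison is a description and not a test of the group. With 0 members lower, the background was 3.96% of genes called lower. At an unadjusted p under 0.05, 12 members were higher and 1 (Ldhb) lower, against 18.6% of all genes in either direction. Limma-voom called 5 members higher and 0 lower, against 2.17% of all genes called higher, and DESeq2 called 10 higher and 0 lower, against 8.66% of all genes called higher. The fold change was positive for 30 of the 33, with a median log2 fold change of 0.95, while over all genes tested the median was 0.05 and 51.8% were positive. With 1 skin library left out, the members called (0 of them lower) numbered 7 without skin 1, against 10.8% of all genes called in either direction, 8 without skin 2 (8.58%), 4 without skin 3 (11.3%) and 4 without skin 4 (8.05%). With 1 SDLN library left out, 0 members were called without SDLN 1 (0.405% of all genes), 0 without SDLN 2 (0.364%) and 1, Tpi1, without SDLN 3 (0.641%).

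**Figure D1:**
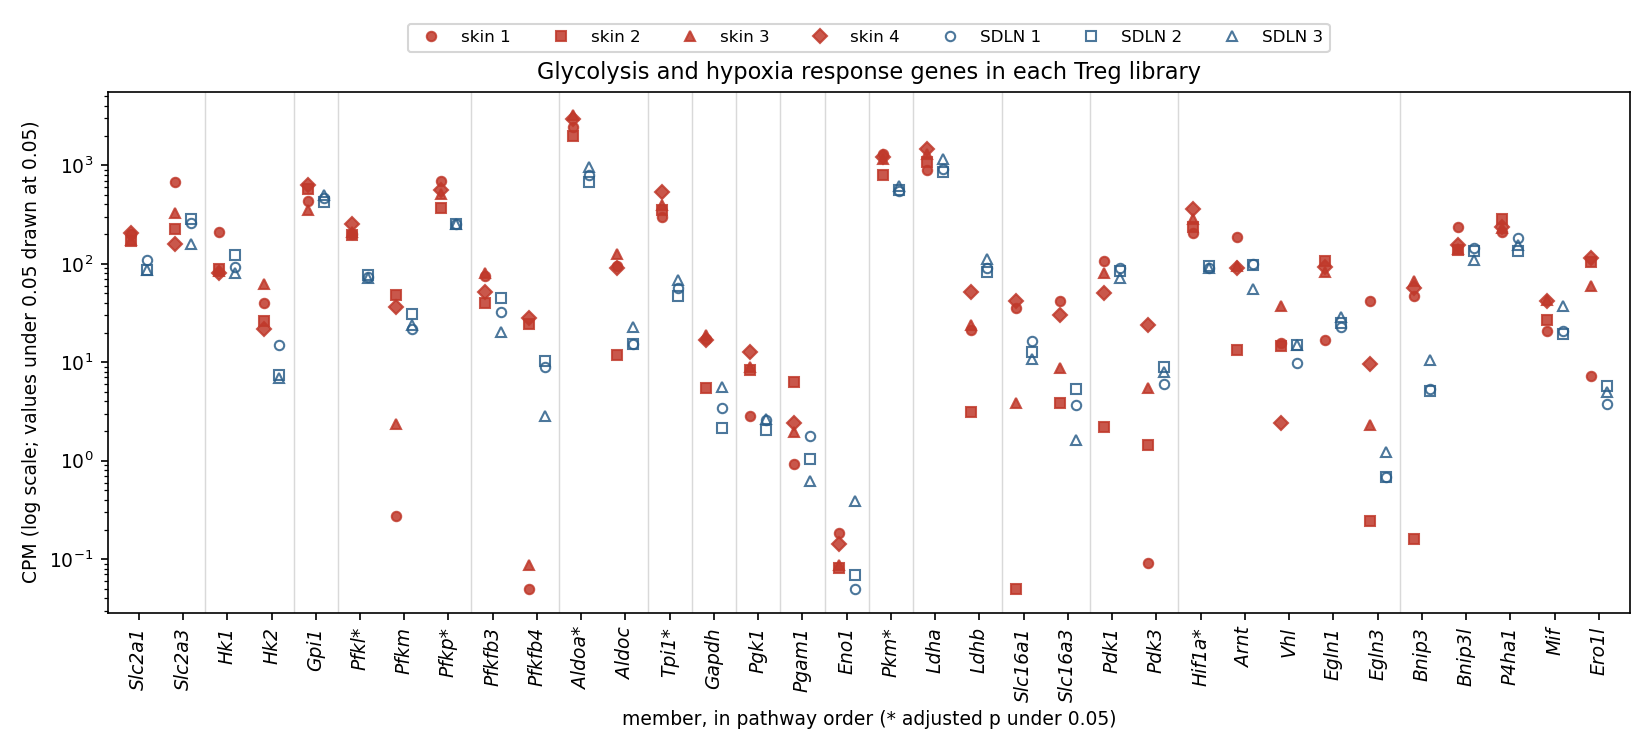
Level of each member in each library, in CPM on a log axis, with members in pathway order, the 4 skin libraries as filled symbols and the 3 SDLN libraries as open symbols to their right; vertical lines part the steps and asterisks mark the 6 members with an adjusted p under 0.05. In Tpi1, Aldoa, Pfkl, Pfkp, Pkm and Hif1a the skin libraries lie above the SDLN libraries, while Slc16a1, Bnip3 and Egln3 spread over more than an order of magnitude among the skin libraries.

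**Figure D2:**
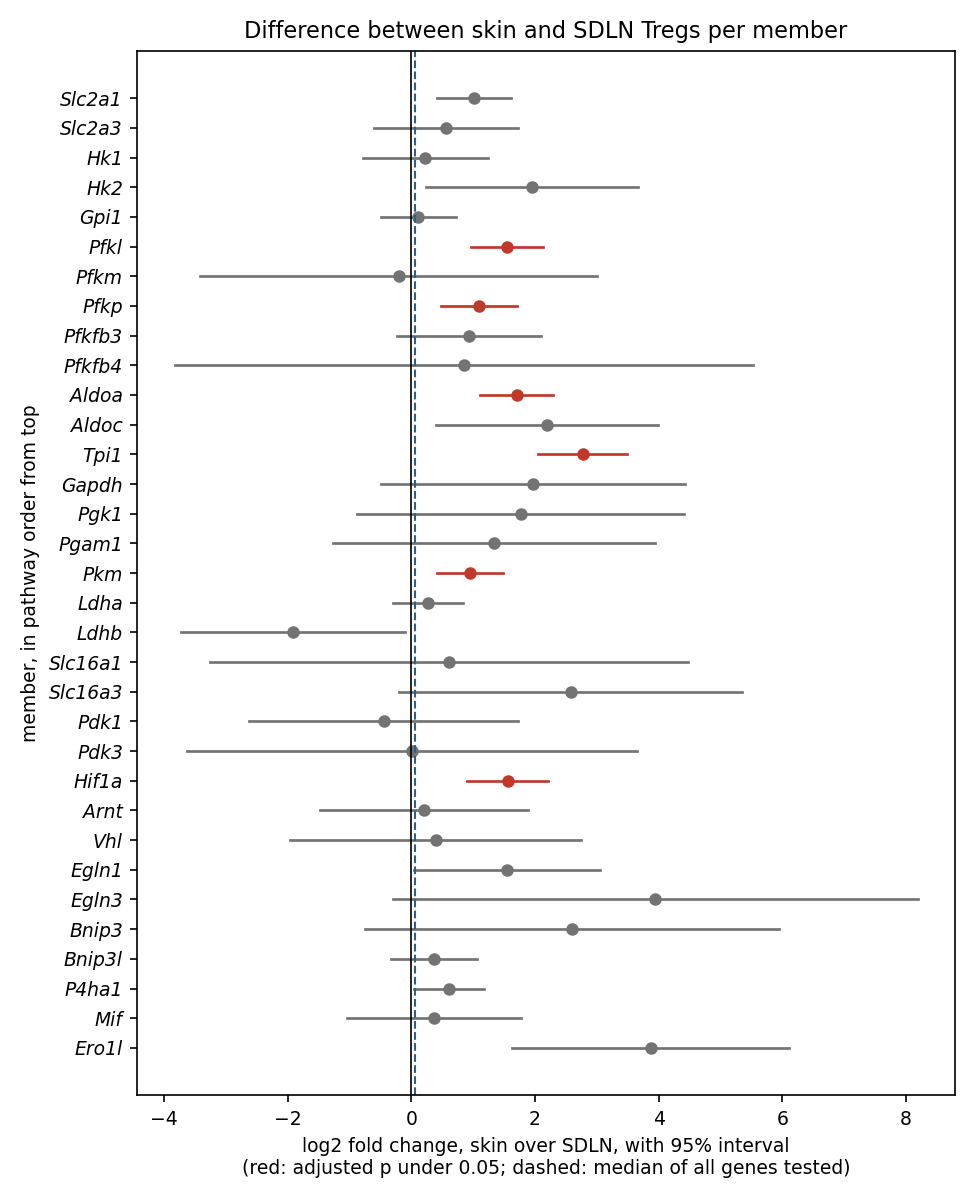
Log2 fold change of skin over SDLN for the 33 members tested, in pathway order from the top, with 95% intervals; red marks an adjusted p under 0.05 and the dashed line is the median of all genes tested, 0.05. The 6 called members run from 0.95 for Pkm to 2.78 for Tpi1, and the widest intervals belong to members with few counts in some skin libraries.

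Glucose enters T cells mainly through the transporters encoded by Slc2a1 (GLUT1) and Slc2a3 (GLUT3). Slc2a1 had 202, 171, 173 and 206 CPM in skin 1 to 4, against 109, 86.1 and 86.0 CPM in SDLN 1 to 3. The tissues did not overlap, yet the log2 fold change of 1.01 (SE 0.26, 95% interval 0.41 to 1.60) had an edgeR adjusted p of 0.0580, just missing the threshold (0.000929 in DESeq2). Slc2a3 had 673, 226, 328 and 160.0 CPM in skin and 262, 284 and 157 CPM in SDLN. The tissues overlapped widely there, and its log2 fold change was 0.57 with an adjusted p of 0.663 in edgeR.

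Hexokinase phosphorylates glucose and so holds it in the cell. Hk1, the isozyme of most tissues, had 209, 87.5, 84.8 and 79.8 CPM in skin, with skin 1 far above the rest, and 92.6, 123 and 80.2 CPM in SDLN. Hk2, the isozyme known as a HIF target, had 39.9, 26.2, 62.5 and 21.6 CPM in skin and 14.9, 7.46 and 6.87 CPM in SDLN. All 4 skin libraries were above all 3 SDLN libraries in Hk2, but its log2 fold change of 1.95 has an interval of 0.23 to 3.66 and an adjusted p of 0.203 in edgeR (0.0238 in DESeq2). Gpi1, which turns glucose 6-phosphate into fructose 6-phosphate, had 438, 578, 355 and 636 CPM in skin, against 469, 423 and 499.8 CPM in SDLN. Its tissues overlapped, and the interval of its log2 fold change, -0.49 to 0.71 on the log2 scale, spans 0.

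Phosphofructokinase, the committed step of the pathway, is built from the subunits Pfkl (liver type), Pfkm (muscle type) and Pfkp (platelet type). Pfkl (chr10:77986947-78010083, mm10) had 203, 196, 212 and 254 CPM in skin, against 72.9, 77.0 and 71.7 CPM in SDLN. It rose 2.92-fold, with a log2 fold change of 1.55 (SE 0.25, 95% interval 0.96 to 2.13) and an edgeR adjusted p of 0.0179. The lowest skin library stood well above the highest SDLN library. Pfkp (chr13:6579768-6648777) had 699, 367, 511 and 567 CPM in skin and 252.4, 252.5 and 251.8 CPM in SDLN, where the 3 libraries nearly coincided. It rose 2.13-fold, with a log2 fold change of 1.09 (SE 0.27) and an edgeR adjusted p of 0.0486, and this call was lost without skin 3 (0.0560) or skin 4 (0.0949). Pfkm was uneven, with 0.276, 48.7, 2.38 and 36.2 CPM in skin, against 21.6, 30.6 and 23.7 CPM in SDLN. Its interval runs from -3.42 to 2.998 on the log2 scale, so no size of difference can be read there. Pfkfb3 and Pfkfb4 make fructose 2,6-bisphosphate, the activator of phosphofructokinase, and neither was called. Pfkfb3 spanned 40.3 to 81.2 CPM in skin and 20.2 to 45.0 CPM in SDLN. Pfkfb4 had 0, 24.4, 0.0881 and 28.5 CPM in skin, against 8.89, 10.3 and 2.86 CPM in SDLN. The 0 of skin 1 allows a level of up to 0.276 CPM.

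Aldolase cuts the 6-carbon sugar into a pair of 3-carbon sugars, which Tpi1 (triosephosphate isomerase) keeps in exchange. Aldoa (chr7:126795234-126800751) had 2472, 1986, 3221 and 2942 CPM in skin, against 803, 674 and 963 CPM in SDLN. It rose 3.27-fold, with a log2 fold change of 1.71 (SE 0.26, 95% interval 1.12 to 2.30) and an edgeR adjusted p of 0.0129. Aldoc, the brain-type isozyme, had 95.9, 11.7, 127 and 91.6 CPM in skin and 15.3, 15.4 and 22.7 CPM in SDLN. Skin 2 was below SDLN in Aldoc and the other skin libraries above it, and the adjusted p was 0.168 in edgeR with all libraries, 0.0212 without skin 2 and 0.0308 in DESeq2. Tpi1 (chr6:124810586-124814296) had 301, 349, 393 and 531 CPM in skin, against 56.4, 47.1 and 69.0 CPM in SDLN. This was the member with the smallest adjusted p in edgeR (0.00502), with a log2 fold change of 2.78 (SE 0.31, 95% interval 2.05 to 3.50), and the lowest skin library lay above the highest SDLN library by a wide margin.

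The middle of the pathway, from Gapdh (glyceraldehyde-3-phosphate dehydrogenase) through Pgk1 (phosphoglycerate kinase) and Pgam1 (phosphoglycerate mutase) to Eno1 (enolase), had few counts. Gapdh, an enzyme usually among the most abundant mRNAs, had 17.1, 5.50, 19.04 and 16.7 CPM in skin and 3.46, 2.14 and 5.56 CPM in SDLN. Pgk1 had 2.85, 8.41, 8.99 and 12.8 CPM in skin, against 2.58, 2.07 and 2.63 CPM in SDLN. Pgam1 reached at most 6.31 CPM in skin and 1.76 CPM in SDLN. None of the 3 was called, with edgeR adjusted p of 0.403, 0.507 and 0.638. Eno1 had 2, 1, 1 and 2 counts in skin and 0, 1 and 5 counts in SDLN, and was not tested. Of the other enolase genes, Eno3, known from muscle, had 3.41, 0, 27.3 and 50.9 CPM in skin, against 94.9, 101 and 133 CPM in SDLN, lower in every skin library but with an edgeR adjusted p of 0.474.

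Shared sequence was measured for all members. Of the 50-base windows of the longest transcript, 82.5% occur also in a transcript of another gene for Gapdh (215 pseudogene transcripts hold some), 67.96% for Pgk1, 41.5% for Pgam1 and 72.2% for Eno1, whose windows were shared most often with Eno1b. Mif (76.4%) and Bnip3 (62.4%) were also above 40%, while 15 of the 34 members shared none. Among the called members the share was 34.4% for Pkm, 17.1% for Pfkp (with Pitrm1, a gene whose annotated transcript overlaps it), 13.5% for Aldoa, 7.51% for Tpi1, 7.25% for Hif1a and 0.0543% for Pfkl. The line for alignments to several places held 61.2% to 64.9% of all counts in skin and 64.9% to 70.4% in SDLN. No source used here gives the read length, so whether these windows match the reads was not tested, and the levels of Gapdh, Pgk1, Pgam1, Eno1, Mif and Bnip3 are uncertain.

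**Figure D3:**
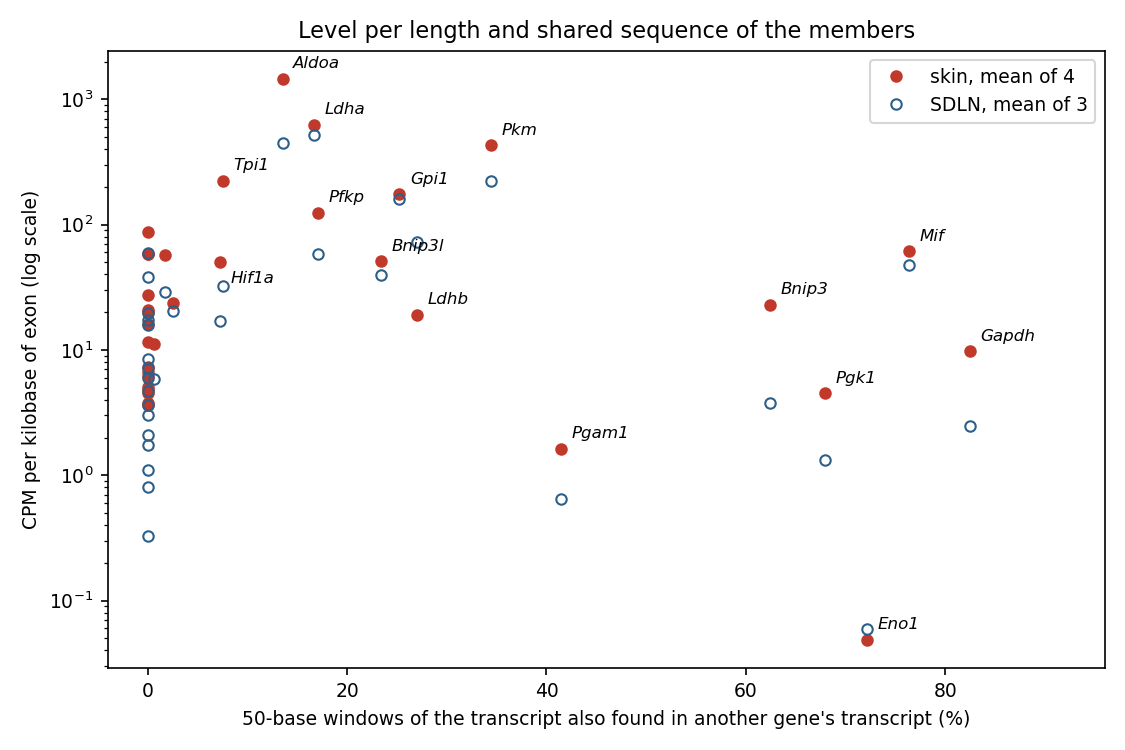
Mean CPM per kilobase of exon on a log axis against the percent of 50-base windows shared with another gene's transcript, with each member as a filled point for skin (mean of 4) and an open point for SDLN (mean of 3). Gapdh, Pgk1, Pgam1 and Eno1 lie at 41.5% or more shared windows and at 9.76 CPM per kilobase or less in both tissues, while Mif, at 76.4%, has 61.0 in skin and 47.5 in SDLN, Bnip3, at 62.4%, has 22.9 in skin and 3.77 in SDLN, and Aldoa and Ldha, at 13.5% and 16.6%, are the highest.

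Pyruvate kinase closes the pathway to pyruvate. Pkm (chr9:59656368-59679375) had 1288, 805, 1159 and 1204 CPM in skin, against 551, 556 and 620 CPM in SDLN. It rose 1.94-fold, with a log2 fold change of 0.95 (SE 0.23, 95% interval 0.42 to 1.49) and an edgeR adjusted p of 0.0474. The tissues did not overlap, but the call was narrow and was lost without skin 1 (0.0510), skin 3 (0.0582) or skin 4 (0.0954). Gene counts do not separate the M1 and M2 forms of this enzyme.

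Lactate dehydrogenase is a tetramer of the subunits Ldha, which favours lactate, and Ldhb, which favours pyruvate. Ldha (chr7:46841475-46855627) had 888, 1092, 1314 and 1465 CPM in skin, against 926, 857 and 1169 CPM in SDLN. The tissues overlapped, and the log2 fold change of 0.27 has an interval of -0.29 to 0.84 (edgeR adjusted p of 0.665). Ldha, whose promoter had the most matches of those printed, was not called. By their promoter with the most matches, the called members held 4 (Pfkp), 3 (Hif1a), 2 (Pkm), 1 (Aldoa), 1 (Pfkl) and 0 (Tpi1). A link between matches and levels was not tested. Ldhb (chr6:142490249-142507957) had 21.2, 3.15, 23.8 and 51.8 CPM in skin and 89.6, 81.7 and 113 CPM in SDLN. Every skin library was below every SDLN library, and Ldhb was the sole member with that pattern, which 16.5% of all genes tested showed. Its log2 fold change of -1.92 (95% interval -3.74 to -0.11) had an unadjusted p of 0.0404 and an adjusted p of 0.241 in edgeR, so it did not pass the test. The reverse pattern, every skin library above every SDLN library, was shown by 11 members (Slc2a1, Hk2, Pfkl, Pfkp, Aldoa, Tpi1, Pgk1, Pkm, Hif1a, P4ha1 and Ero1l) and by 10.1% of all genes tested.

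Shares within a step compare isozymes per length, as a percent of the CPM per kilobase of exon. Ldhb made up 3.35%, 0.418%, 2.56% and 4.88% of the lactate dehydrogenase level in skin 1 to 4, against 12.3%, 12.2% and 12.3% in SDLN. Hk2 made up 14.2%, 20.6%, 38.9% and 18.96% of the hexokinase level in skin and 12.2%, 4.97% and 6.89% in SDLN. Pfkl made up 30.8 ± 3.97% of the phosphofructokinase level in skin (SD, n = 4), against 22.8 ± 0.323% in SDLN (SD, n = 3), without overlap. These 3 shares separated the tissues, though they are descriptions with no test. Slc16a3 made up 54.3%, 100%, 69.3% and 42.0% of the level of the lactate transporters in skin 1 to 4, against 18.1%, 29.9% and 12.98% in SDLN. The 100% of skin 2 comes with 0 counts of Slc16a1 there, and Slc16a3 itself, at 3.88 CPM in skin 2, lay within the SDLN range of 1.62 to 5.39 CPM. The share of Pfkp overlapped, with 65.0 ± 8.24% in skin and 67.5 ± 1.72% in SDLN, as did that of Slc2a1, with 43.7 ± 14.4% in skin and 33.5 ± 6.49% in SDLN. Aldoa supplied 98.3 ± 0.937% of the aldolase level in skin and 98.7 ± 0.147% in SDLN.

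**Figure D4:**
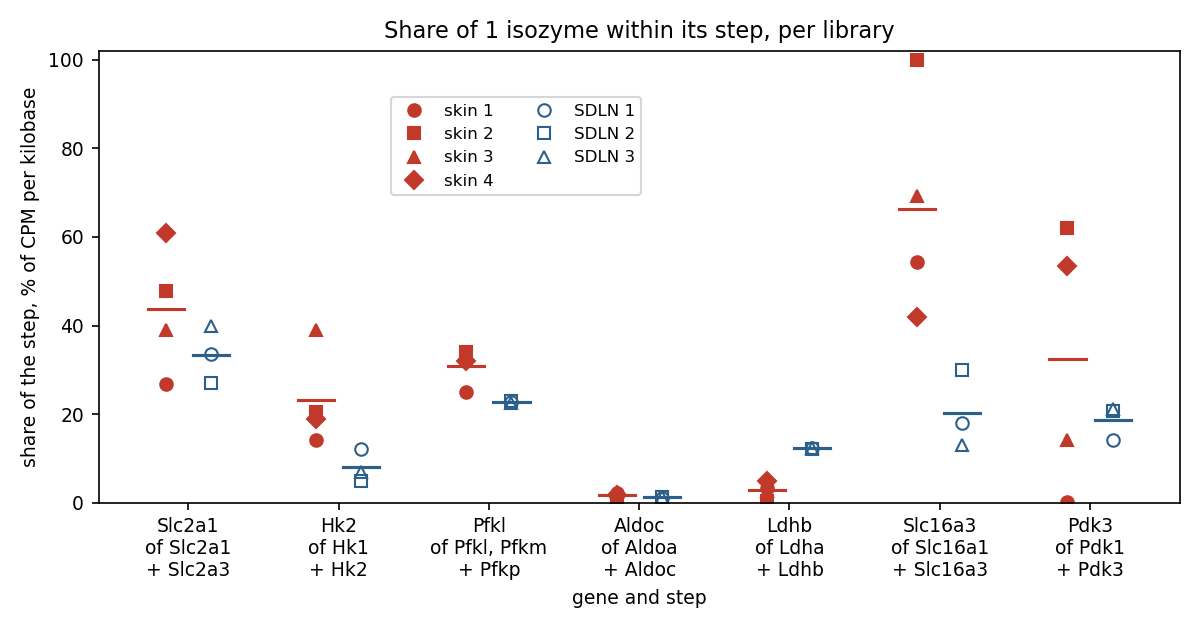
Share of 1 isozyme in its step in each library, as a percent of CPM per kilobase, with skin as filled symbols to the left of SDLN as open symbols, and short lines at the tissue means. The Ldhb share is lower in every skin library and the shares of Hk2, Pfkl and Slc16a3 are higher in every skin library than in any SDLN library, with the 100% of Slc16a3 in skin 2 set by 0 counts of Slc16a1.

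Per length, Aldoa was the highest member in skin with a mean of 1456 CPM per kilobase, against 446 in SDLN, where Ldha came first. Ldha averaged 628 CPM per kilobase in skin and 519 in SDLN, and Pkm 429 in skin and 221 in SDLN. Tpi1 ranked 4 in skin and 11 in SDLN by this level, and Ldhb ranked 19 in skin and 5 in SDLN. The 34 members together took 0.797%, 0.694%, 0.950% and 0.974% of the gene counts of skin 1 to 4, against 0.447%, 0.433% and 0.471% of those of SDLN 1 to 3.

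Lactate leaves cells through Slc16a1 (MCT1) and Slc16a3 (MCT4), the second known as a HIF target. Slc16a1 had 35.2, 0, 3.88 and 41.7 CPM in skin, against 16.5, 12.6 and 10.8 CPM in SDLN. The 0 of skin 2 allows up to 0.243 CPM. Slc16a3 had 42.0, 3.88, 8.81 and 30.4 CPM in skin and 3.66, 5.39 and 1.62 CPM in SDLN. Neither was called, with edgeR adjusted p of 0.915 and 0.314. Skin 1 and skin 4 were high and skin 2 and skin 3 low for both. The pyruvate dehydrogenase kinases Pdk1 and Pdk3 keep pyruvate out of mitochondrial oxidation. Pdk1 had 106, 2.18, 81.4 and 50.7 CPM in skin, against 89.5, 84.6 and 72.2 CPM in SDLN. Pdk3 spanned 0.0920 to 23.7 CPM in skin and 6.04 to 8.98 CPM in SDLN, and neither kinase was called.

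Among the regulators of the oxygen response, Hif1a, the oxygen-sensitive subunit, was higher in skin. Hif1a (chr12:73901375-73947530) had 205, 239, 284 and 363 CPM in skin, against 90.6, 95.97 and 90.9 CPM in SDLN. It rose 2.95-fold, with a log2 fold change of 1.56 (SE 0.29, 95% interval 0.90 to 2.22) and an edgeR adjusted p of 0.0274. Its partner Arnt had 186, 13.4, 95.9 and 91.5 CPM in skin and 99.0, 96.6 and 56.0 CPM in SDLN, with overlap. Vhl, the substrate receptor of the ligase that removes HIF-1α, spanned 2.42 to 37.0 CPM in skin and 9.84 to 14.98 CPM in SDLN. Egln1 and Egln3 encode the prolyl hydroxylases PHD2 and PHD3, and Egln3 is also a HIF target. Egln1 had 16.9, 108, 82.9 and 93.0 CPM in skin, against 23.0, 25.0 and 29.1 CPM in SDLN. Skin 1 lay below SDLN and the other 3 above it, so that its edgeR adjusted p was 0.257 with all libraries and 0.0285 without skin 1. Egln3 had 41.9, 0.243, 2.29 and 9.70 CPM in skin, against 0.678, 0.690 and 1.24 CPM in SDLN, with an adjusted p of 0.313 in edgeR.

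The remaining members are known targets of HIF or linked to it, and none was called by edgeR with all libraries. Ero1l, an oxidase of disulfide formation in the endoplasmic reticulum, had 7.27, 103, 59.1 and 115 CPM in skin, against 3.80, 5.80 and 4.94 CPM in SDLN. The tissues did not overlap, and the log2 fold change of 3.87 (95% interval 1.63 to 6.11) had an edgeR adjusted p of 0.0536. It was called by edgeR without skin 1 (0.00916), by DESeq2 with an adjusted p of 0.000117 and by limma-voom with a variance weight per tissue (0.0112). P4ha1, a collagen prolyl 4-hydroxylase subunit, had 208, 284, 230.3 and 238 CPM in skin and 181, 136 and 157 CPM in SDLN, again without overlap, with an adjusted p of 0.238 in edgeR. Bnip3, a mitochondrial protein of mitophagy, had 47.0, 0.162, 66.5 and 56.1 CPM in skin, against 5.29, 5.11 and 10.6 CPM in SDLN. In Bnip3, skin 2 was below all SDLN libraries and the other 3 above them, and the edgeR adjusted p was 0.421 with all libraries and 0.0393 without skin 2. Its relative Bnip3l spanned 137 to 237 CPM in skin and 110 to 146 CPM in SDLN. Mif, a cytokine with tautomerase activity, spanned 20.6 to 43.3 CPM in skin and 19.5 to 37.1 CPM in SDLN.

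The spread among the skin libraries was wide. The median coefficient of variation of the 33 tested members was 0.534 in skin and 0.195 in SDLN, against 0.750 and 0.187 over all genes tested. This coefficient was larger in skin for 28 of the 33 members and for 10542 of all 11376 genes tested. Skin 2 was the lowest of the 4 skin libraries for 16 of the 33 members, skin 1 for 12, skin 4 for 4 and skin 3 for 1. At 3 counts or fewer stood 4, 4, 2 and 1 of the 34 members in skin 1 to 4, against 1, 1 and 0 in SDLN 1 to 3. The called members were not among these, and each of them had at least 195.7 CPM in every skin library.

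**Figure D5:**
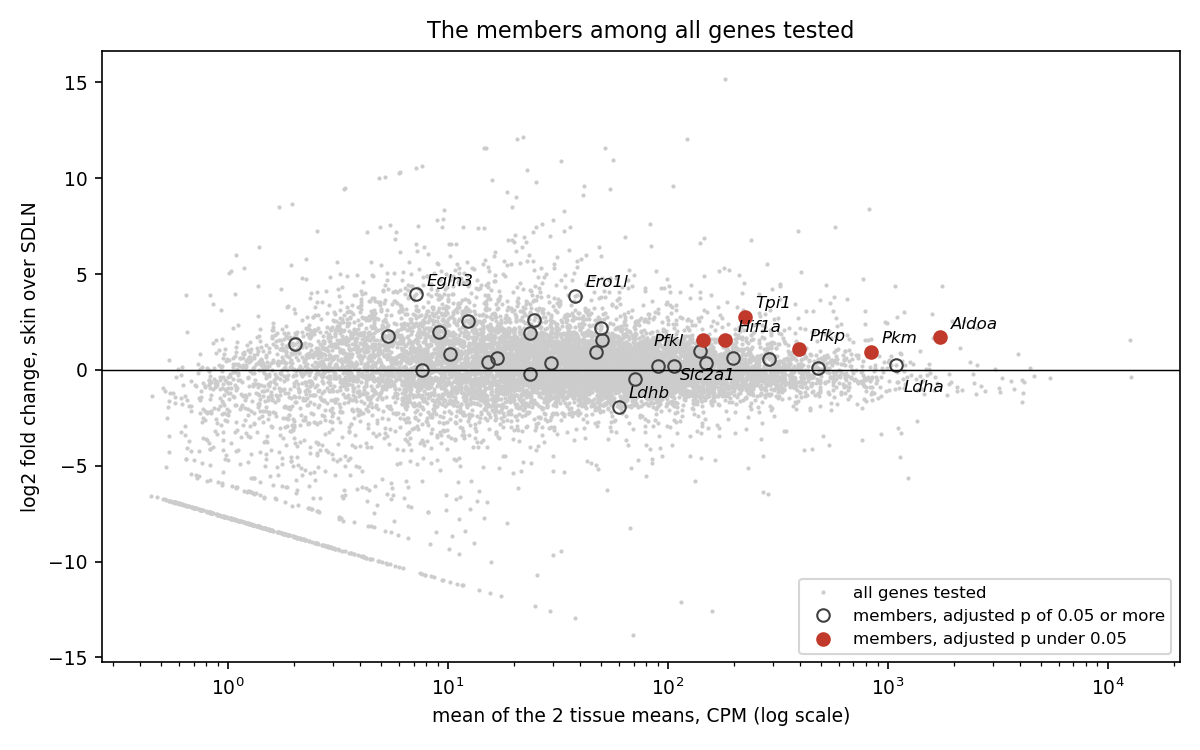
Log2 fold change of skin over SDLN against the mean of the tissue means in CPM (log axis) for all 11376 genes tested in grey, with the members not called as open circles and the 6 called members in red. The called members lie at the right, among well-counted genes, and Egln3 and Ero1l have larger fold changes but are not called.

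The rest of the pathway was followed through 108 other genes in 3 lists, of which 83 were tested. These lists were chosen with earlier results of these data known, so their shares beside all genes are descriptions. Of 38 tested genes of the hypoxia list, 4 (10.5%) were higher by edgeR, against 3.28% of all genes, and 0 were lower, against 3.96%. At an unadjusted p under 0.05, 13 were higher and 0 lower, against 18.6% of all genes in either direction, and the median log2 fold change was 1.07, against 0.05 over all genes. DESeq2 called 12 higher and 0 lower there, against 8.66% of all genes called higher, and limma-voom 3 and 0, against 2.17%. The 4 were Rora, a nuclear receptor, Arnt2, a relative of Arnt, Zfp36l1, an mRNA decay factor, and Ndrg1, a stress-response gene. Arnt2 had 176, 135, 77.1 and 138 CPM in skin, against 3.87, 4.07 and 11.1 CPM in SDLN (log2 fold change 4.37, SE 0.61, edgeR adjusted p of 0.0111). Ndrg1 had 71.6, 189.5, 162 and 119.96 CPM in skin, against 18.04, 28.9 and 22.0 CPM in SDLN (log2 fold change 2.56, SE 0.46, edgeR adjusted p of 0.0260). Both were well apart between the tissues, while Arnt itself overlapped. Rora averaged 1007 ± 177 CPM in skin (SD, n = 4) and 46.7 ± 6.76 CPM in SDLN (SD, n = 3), and Zfp36l1 295 ± 66.6 CPM in skin and 85.5 ± 3.30 CPM in SDLN, with edgeR adjusted p of 0.00104 and 0.0142.

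None of the 31 tested genes in the list of other glycolysis genes was called by edgeR, against 3.28% of all genes called higher and 3.96% lower. At an unadjusted p under 0.05, 3 were higher and 3 lower, against 18.6% of all genes in either direction. The median log2 fold change of the list was -0.02. DESeq2 called 2 of these genes higher and 1 lower, against 8.66% and 4.76% of all genes. Limma-voom called 0 and 1, against 2.17% and 6.05%. The 14 genes of the pentose phosphate pathway, which branches off at glucose 6-phosphate to make NADPH and ribose, gave 0 calls in either direction by edgeR, DESeq2 and limma-voom and 0 at an unadjusted p under 0.05. Their fold change was negative for 12 of the 14, with a median log2 fold change of -0.57, while 51.8% of all genes tested were positive. Without skin 1, edgeR called 8 hypoxia genes higher and 2 other glycolysis genes (Pdha1 and Pfkfb1) lower, against 10.8% of all genes called in either direction. Without skin 3, the library with the keratinocyte and fibroblast transcripts, it called 5 hypoxia genes higher and 3 lower (Car9, Car12 and Angptl4), against 11.3% of all genes. Without skin 2 it called 7 hypoxia genes higher and Shpk of the pentose phosphate list lower (8.58%), and without skin 4 it called 4 hypoxia genes higher and Galm and Rbks of the other lists lower (8.05%). Without SDLN 1, SDLN 2 or SDLN 3 it called 1, 1 and 2 hypoxia genes higher, against 0.405%, 0.364% and 0.641% of all genes in either direction.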

How the data were processed

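RNA of sorted, flash-frozen Tregs was made into libraries with the SMARTer Ultra Low Input kit, per the labels' protocols. The authors deposited whole-number read counts by gene symbol, without normalization. The submitters' processing notes name HTSeq 0.6.1, SAMtools 0.1.19.0, Bowtie2 2.1.0.0, TopHat2 2.0.12, CASAVA 1.8.2 and the mm10 build. Annotation, strand setting and read length are not stated there, so overlapping genes and antisense partners could not be told apart. The table held 24084 gene symbols, 27 of them turned into dates, and 5 summary lines, which stayed out of library sizes and tests.

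Genes were kept by filterByExpr (minimum count 10) in edgeR 4.0.16 under R 4.3.3, which left 11376. After TMM scaling, the 4 skin and 3 SDLN libraries were compared by edgeR's two-sided quasi-likelihood test (robust, with a single term for tissue), with Benjamini-Hochberg adjustment over all 11376 genes and a threshold of 0.05. CPM are on TMM-scaled sizes, SDs are over libraries, and a 0 was read against a floor of 3 counts, which covers counting error only. The script was tested on simulated counts that had the same spread in both tissues, unlike these data, and only the sign of recovered changes was required. Titles gave the groups. Every member is described, and of the other pathway genes each one called with all libraries is named; Eno3 and the genes called lower with a library left out were named after their values were seen. The members and lists were chosen with earlier results of these data known. Levels per length used exon lengths of GENCODE M21 on GRCm38, the assembly of mm10, which also gave gene positions and the 50-base windows, matched exactly on both strands. Promoter letters were searched in RefSeq promoters of 300 bases. Other settings tried were scaling by RLE, by the upper quartile or by the total alone, no filter, a mean of at least 5 CPM, no robust estimation, DESeq2 1.42.0, limma-voom (limma 3.58.1) with and without a variance weight per tissue, a block for the replicate number, the fit with each library left out, and an adjusted p under 0.01.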

Additional observations from a re-analysis of the deposited data

Results flagged for a closer look

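Hk1 stood out for 1 library. Skin 1 had 209 CPM, against 87.5, 84.8 and 79.8 CPM in skin 2 to 4, so that its gap to the nearest skin library was 0.940 of the range of the group, past Dixon's 95% critical value for 4 libraries. Without skin 1, the log2 fold change of Hk1 was -0.23, against 0.22 with all libraries. This was the sole hit among 37 genes tested in this way, and chance alone gives about 1 in 20.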

How the results depend on the processing

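Across 18 alternatives other than the stricter threshold, Tpi1 was called in 15, Pfkl, Aldoa and Hif1a in 13 each, Pfkp in 7 and Pkm in 6. Their log2 fold changes ran from 2.58 to 2.91, 1.45 to 1.58, 1.58 to 1.83, 1.37 to 1.68, 0.94 to 1.21 and 0.85 to 1.061, in that order, and their adjusted p reached 0.0635, 0.252, 0.127, 0.253, 0.356 and 0.358. Members higher in skin numbered 10 with DESeq2, 1 at an adjusted p under 0.01, and 0 to 8 with a library left out. All genes higher numbered 188 without the filter, 923 with DESeq2, 247 with limma-voom, 593 with variance weights, 72 at an adjusted p under 0.01, and 33 to 582 with a library left out. All genes lower numbered 70 without the filter, 99 at a mean of at least 5 CPM, 688 with limma-voom, 1002 with variance weights, 16 at an adjusted p under 0.01, and 9 to 822 with a library left out. Other pathway genes higher numbered 14 with DESeq2, 8 with variance weights, 1 at an adjusted p under 0.01, and 1 to 8 with a library left out. Other pathway genes lower, 0 in the chosen setting, numbered 1 with upper-quartile or no scaling, DESeq2 or limma-voom, 3 with variance weights, and 0 to 3 with a library left out. Every fit with 1 library left out had the same number of libraries, and so equally fewer degrees of freedom than the chosen setting. In either direction, edgeR called 901 to 1270 of all genes without 1 skin library. Without 1 SDLN library it called 43 to 76. The cause of this difference was not tested.

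Whether replicate numbers pair the libraries cannot be told from so few libraries. Same-numbered deviations correlated at 0.0875, -0.00278 and -0.0524. Skin 1 and SDLN 1 correlated best with each other, but not every library did so with its own number. Skin 3 and SDLN 3 looked to be of different sex, with 2 and 3877 counts of Ddx3y. With the replicate block in 6 or 7 libraries, 0 and 1 members, 32 and 44 of all genes and 1 and 1 other pathway genes were higher, and 10 and 12 of all genes were lower.

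The sign of 8 uncalled members turned in some settings. With 1 library left out, log2 fold changes ran from -0.23 to 0.40 for Hk1, -0.032 to 0.25 for Gpi1, -0.97 to 0.20 for Pfkm, -0.035 to 1.01 for Slc16a1, -1.75 to 0.42 for Pdk3, -0.32 to 0.55 for Arnt and -0.28 to 0.73 for Vhl. They turned without skin 1 (Hk1, Pfkm, Arnt), skin 3 (Pfkm, Vhl), skin 4 (Gpi1, Slc16a1, Pdk3), SDLN 1 (Pdk3) or SDLN 3 (Arnt). With limma-voom, without and with weights, they were -2.26 and -2.24 for Pfkfb4, -1.75 and -1.75 for Slc16a1, -1.73 and -1.72 for Pdk3, -0.30 and -0.28 for Arnt, and -0.23 and -0.21 for Vhl. Pdk3 gave -0.022 with RLE scaling, -0.046 with upper-quartile scaling, -0.036 without the filter and -0.022 with DESeq2. With the replicate block in 6 and 7 libraries, Gpi1 gave -0.063 and -0.049, Pfkfb4 -4.37 and -4.29, Slc16a1 -2.03 and -1.98, Pdk3 -2.83 and -2.82, and Arnt -0.26 and -0.24. Genes at large also moved down in these fits. The median log2 fold change of all genes tested was -0.616 and -0.617 with limma-voom, without and with weights. It was -0.552 and -0.536 with the block in 6 and 7 libraries, against 0.05 in the chosen setting. Without length scaling the Ldhb share differed by -6.83 points, against -9.46 points per length. A member at or under 3 counts in a library cannot be told from absent there.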
